A study of Astyanax mexicanus with 6 samples.

Results

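Upstream regions with an intermediate level of DNA methylation in the eyes of both morphs of the Mexican tetra, Astyanax mexicanus, are described here. A region was taken as a member where it had 50 or more methylation calls in each of 2 bisulfite libraries, where 30 to 70% of its calls were methylated in both, and where the 2 percentages were less than 10 points apart. A call is 1 reading of 1 cytosine as methylated or unmethylated. There were 1942 members among 25271 upstream regions, or 8.31% of the 23372 regions with enough calls. Each region belongs to 1 annotated gene, and the members lay on 712 scaffolds. The measured levels chose the members, so those levels are described below without a test.

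In vertebrates most cytosines that precede a guanine are methylated, and the regions around many gene starts are an exception that stays unmethylated. Methylation at a promoter is known to accompany silence of the gene in many cases, whereas methylation within the transcribed body is common in active genes. An intermediate level in a bulk sample can come from sites that are each partly methylated, from a region that spans a methylated and an unmethylated stretch, or from cells or alleles of opposite state, and summed calls over a region cannot tell these apart.

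The eyes came from wild-type fish of the cave morph, which forms eyes that later degenerate, and of the surface morph, which keeps them. They were dissected at about 54 hours post-fertilization, and no treatment separated the groups. Poly(A) RNA was sequenced from 2 libraries per morph and bisulfite-treated DNA from 1 library per morph. Nothing in the labels tells whether the paired RNA libraries of 1 morph are separate batches of fish, so the p-values measure only the spread between the libraries given, which may be technical.

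RNA libraries held 117742250 to 154476181 counts, and the bisulfite libraries 43378558 (cave) and 42555064 (surface) upstream calls. Photoreceptor markers were far higher in the RNA libraries of the cave morph, whose eyes degenerate, and those libraries are therefore called labelled cave and labelled surface. Of 7 photoreceptor markers 5 were found, under 6 gene entries of which 5 passed the expression test described below, all with more RNA under the cave label, with summed levels of 3460 and 4142.5 CPM (each count scaled by the total of its library) against 218.6 and 189.5, and the rod opsin gene rho at 0 in 1 library labelled surface. The library labelled cave, replicate 2, stood apart in skin markers, and both libraries labelled cave did so in muscle markers, in opposite directions. Its epidermis and cornea markers summed to 972.9 CPM against 8246 to 10278 in the other 3 libraries, and its muscle markers to 44.2 CPM, the lowest of the 4, against 489 in replicate 1. Whether the RNA labels were exchanged was not tested, and the direction of every RNA comparison rests on them.

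Members filled the range the rule allows rather than gathering at its centre. The median level was 51.9% in cave eyes (quartiles 41.3 and 61.0%) and 52.0% in surface eyes (41.7 and 60.4%). The cave library was the higher one in 963 members, the surface library in 978, and 1 was equal. The levels lay within 2 points of each other in 506 members and within 5 points in 1144, and both lay between 40 and 60% in 735. Of 2873 regions at 30 to 70% in both libraries, 67.6% were less than 10 points apart and so became members, and 931 were not.

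**Figure D1:**
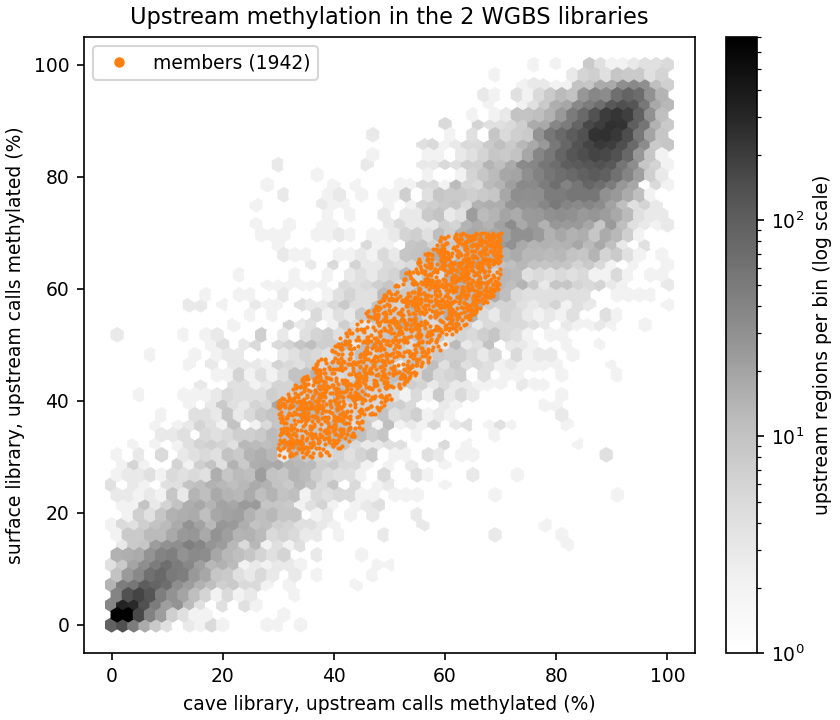
Methylated share of upstream calls (%), cave library on the x axis and surface library on the y axis, for 23372 regions with 50 or more calls in each. Grey hexagons count regions on a log scale and orange points are the 1942 members, which form a band between a dense group of unmethylated regions and a dense group of highly methylated ones.

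The plot of levels in both libraries shows where the members sit among all regions. Regions under 10% in both numbered 3868 (16.6%) and regions over 90% in both 1456 (6.23%). At the lower limit, GABRG3, a subunit gene of an inhibitory receptor, was inside at 36.0 and 30% (cave, then surface), and neil3, a DNA repair gene, was outside at 31.6 and 29.95%. At the upper limit, the centrosome gene cep68 was inside at 70 and 69.9%, and clip3 outside at 70.06 and 66.9%. The forkhead gene foxi3b was just inside the limit on the difference, at 43.6 and 33.6%, and traf5 just outside it, at 51.0 and 41.0%. At the limit on calls, the potassium channel gene KCNJ10 was inside with 58 and 86 calls and fmr1 outside with 114 and 42.

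Most members rest on many calls. The median was 1134 calls in cave eyes and 1050.5 in surface eyes, against 2043 and 1938.5 in regions under 10% and 974 and 900 in regions over 90%. Fewer than 200 calls in either library were found in 89 members, and the depth differed by more than a factor of 2 between libraries in 70. Intervals given below are 95% exact (Clopper-Pearson) intervals. They cover counting error only, and they are too narrow, since calls on 1 read are not independent. Every cave value is even, so the cave intervals were computed from calls divided by 2. The depths above are of undivided calls.

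The members with the deepest coverage include repeated genes. A 5S ribosomal RNA gene (ENSAMXG00000027092, scaffold KB882230.1, 1612195 to 1612286) had 450356 upstream calls (cave) and 454968 (surface). It was methylated at 53.2% (interval 53.0 to 53.4) and 58.5% (58.4 to 58.7). A neighbouring copy (ENSAMXG00000027029, 1611060 to 1611178) stood at 55.8 and 63.0% on 43468 and 45061 calls. Of 35 regions of genes named 5S_rRNA, 4 were members, and since near-identical copies can share reads, the level of any 1 copy is uncertain. The myosin heavy chain gene myh10 (KB882230.1, 1206944 to 1290897), whose upstream neighbour is another 5S_rRNA gene, stood at 56.8 and 61.9% on 25028 and 17882 calls. More than 10000 calls in both libraries were found in 13 members.

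Neighbouring members can be 1 stretch of DNA counted for each gene. The histidyl-tRNA synthetase gene hars (ENSAMXG00000018719, KB882175.1, 1080684 to 1101555, plus strand) and the trafficking complex gene trappc11 (ENSAMXG00000018665, 1051057 to 1078399, minus strand) face away from each other across a gap of 2284 bases. Upstream of hars the level was 37.5% of 14172 cave calls and 44.9% of 54025 surface calls. Upstream of trappc11 it was 37.5% of 14158 and 45.0% of 53841, so the calls of these members are nearly the same ones. In all, 118 members had a divergent neighbour that was also a member, of which 22 were less than 2000 bases away, and 2 pairs of members had identical calls. Calls identical to those of the upstream neighbour were found for 4 of 1942 members and for 69 of 23372 regions with enough calls. The count of 118 was not set beside a like count over all regions.

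The position of members differed in value from that of unmethylated regions. Among 1807 members with an upstream neighbour on the scaffold, 44.5% had one on the opposite strand facing away, against 63.1% of regions under 10%, 33.4% of regions over 90% and 44.9% of all genes. A divergent neighbour less than 2000 bases away was found for 7.69% of members, 27.0% of regions under 10% and 9.996% of all genes. The upstream neighbour was itself a member for 11.5% of members, 8.285% of the regions 10 or more points apart and 7.97% of all genes. Member genes overlapped another gene in 11.3% of cases, against 14.0% of all genes. Their median span was 12975 bases, against 12907 in the regions 10 or more points apart, 10435 in regions under 10% and 7122 in regions over 90%. A gene symbol was given to 80.1% of members and 78.6% of the regions 10 or more points apart. The share was 86.4% in regions under 10%, 51.3% in regions over 90% and 68.0% over all genes. These shares are descriptions over genes that can share sequence, with no test.

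The lists of developmental regulators differed in how many of their regions were unmethylated. None of 45 Hox genes, which set position along the body axis, was a member, and 44 of them were under 10% in both libraries. In the list of Pax and eye field genes 2 of 39 regions were members and 25 were under 10%. They were the retinal and optic stalk regulator gene vax1 (51.0% in cave eyes and 56.5% in surface eyes) and six7 (46.8 and 49.5%), which in zebrafish acts in cones. Other homeobox genes gave 8 of 132, with 80 under 10%, among them msx1a and barhl1a. Sox, Fox, Tbx and Gata genes gave 10 of 93, with 39 under 10%, among them sox12, sox5, foxp2 and tbx16, and basic helix-loop-helix (bHLH) genes 5 of 50, with 25 under 10%. The bHLH members were the Notch target genes hey2, her8.2 and HES4 and the Olig family genes olig1 and olig4. No member in these 4 lists that hold members passed the expression test described below, which called 2.77% of all genes tested higher and 0.407% lower.

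Of 92 ligand and inhibitor genes of the Wnt, FGF, BMP and hedgehog pathways, 14 (15.2%) were members against 8.31% of all regions, a difference that was not tested. They included the ligand genes wnt4a (58.6 and 52.7%), wnt6a (61.6 and 62.4%), wnt11r, bmp3, bmp5, bmp6, bmp7b and fgf20a, and the inhibitor genes dkk1a, dkk2 and nog2. The gene nog2, for a BMP antagonist, stood at 51.3% of 6646 calls and 59.4% of 6914. In the list of axon guidance genes 8 of 84 were members: the receptor genes ROBO1, ROBO2, unc5b, nrp2b, plxnb2a and ephb2b and the ephrin genes EFNB1 and efna1a. Only pcdh7a of 55 cadherin and protocadherin genes was a member, at 60.1 and 51.9%.

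Proteasome genes had the highest share of members among the 27 gene lists, with 12 of 52 (23.1%). Over all regions the share was 8.31%, and the difference was not tested. The proteasome degrades proteins tagged for removal, and its genes are active in nearly all cells. The members included core subunit genes psma3 (69.6 and 65.75%) and psmb1 (37.5 and 45.5%) and regulatory particle genes psmc1a, psmc5, psmd1, psmd4a, psmd11a, PSMD13 and psmd14. The others were the activator gene psme4b and the assembly chaperone genes psmd10 and psmg2. All 12 had RNA in all 4 libraries. The RNA of psmc5 stood at 503 and 548 CPM in the libraries labelled cave and 630.3 and 551.5 CPM in those labelled surface. For psmb1 the values were 320.2 and 410.3 against 380.3 and 351 CPM. The groups overlapped in psmb1 and lay next to each other in psmc5, and 0 of the 12 passed the expression test. None of the 51 proteasome genes tested in any upstream class passed it either. Over all genes tested 2.77% were higher and 0.407% lower. Among other genes of general function, 8 of 83 respiratory chain genes, 7 of 87 heat shock and chaperone genes and 5 of 87 cytosolic ribosomal protein genes were members.

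Of 27 germline gene regions 0 were over 90% in both libraries, against 6.23% of all regions with enough calls. That was not particular to this short list. The lists of Hox genes (45 regions), Pax and eye field genes (39), secreted signal genes (92) and DNA methylation enzymes (31) also gave 0. The germline list gave 5 members (18.5%), against 8.31% of all regions with enough calls, a difference that was not tested. They were ddx4, an RNA helicase gene of germ cells (63.4 and 65.2%), the meiotic genes dmc1 (52.7 and 43.2%) and sycp1 (60.4 and 65.4%), tdrd9 (39.1 and 44.2%) and the sex regulator gene dmrt1 (68.9 and 60%). The RNA of ddx4 was 0.437 and 0.17 CPM in the libraries labelled cave and 0.64 and 0.634 CPM in those labelled surface. Of the 5, 2 had RNA at 1 CPM or more in all 4 libraries, namely dmc1 and sycp1.

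Among genes that act in the mature eye, the member share was on both sides of the 8.31% over all regions. Phototransduction genes gave 4 of 71 regions (5.63%): the cone transducin gene gnat2 (60.6 and 58.55%), the rod phosphodiesterase gene pde6a (61.2 and 61.8%), RGS9, which ends the transducin signal (33.3 and 32.5%), and the opsin gene opn5 (42.9 and 47.6%). Lens genes gave 3 of 38, or 7.89% (the water channel gene mipb, the connexin gene gja3 and the transcription factor gene hsf4). Pigment genes gave 3 of 27 (11.1%), which were lrata, the enzyme gene that stores retinol as esters (68.3 and 65.2%), best2 and the pteridine synthesis gene PTS. Voltage-gated and potassium channel genes gave 13 of 167, neurotransmitter receptor genes 11 of 155 and synaptic genes 9 of 97 (9.28%).

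Genes for the methylation machinery itself gave 3 members of 31. The de novo methyltransferase gene dnmt3aa had an upstream level of 55.5% of 3300 cave calls and 59.9% of 2721 surface calls. The methyl-binding protein gene mbd2 stood at 35.9 and 35.05%, and kdm2ba, whose product binds unmethylated DNA in mammals, at 35.1 and 33.3%. The RNA of dnmt3aa was 4.66 and 3.53 CPM in the libraries labelled cave and 5.15 and 8.98 CPM in those labelled surface, with a log2 fold change of -0.69 (adjusted p = 0.44, edgeR and Benjamini-Hochberg). Histone modifying enzyme genes gave 7 members of 95, among them suz12a and cbx8b of the Polycomb complexes. Immune genes gave 9 of 168, solute carriers 39 of 380, collagens and laminins 5 of 56, C2H2 zinc finger genes 16 of 196, small GTPases and their regulators 22 of 266 and other G protein-coupled receptors 11 of 203. Over all lists 238 of 2865 regions were members, which is 8.31%, the same to 3 digits as over all regions.

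**Figure D2:**
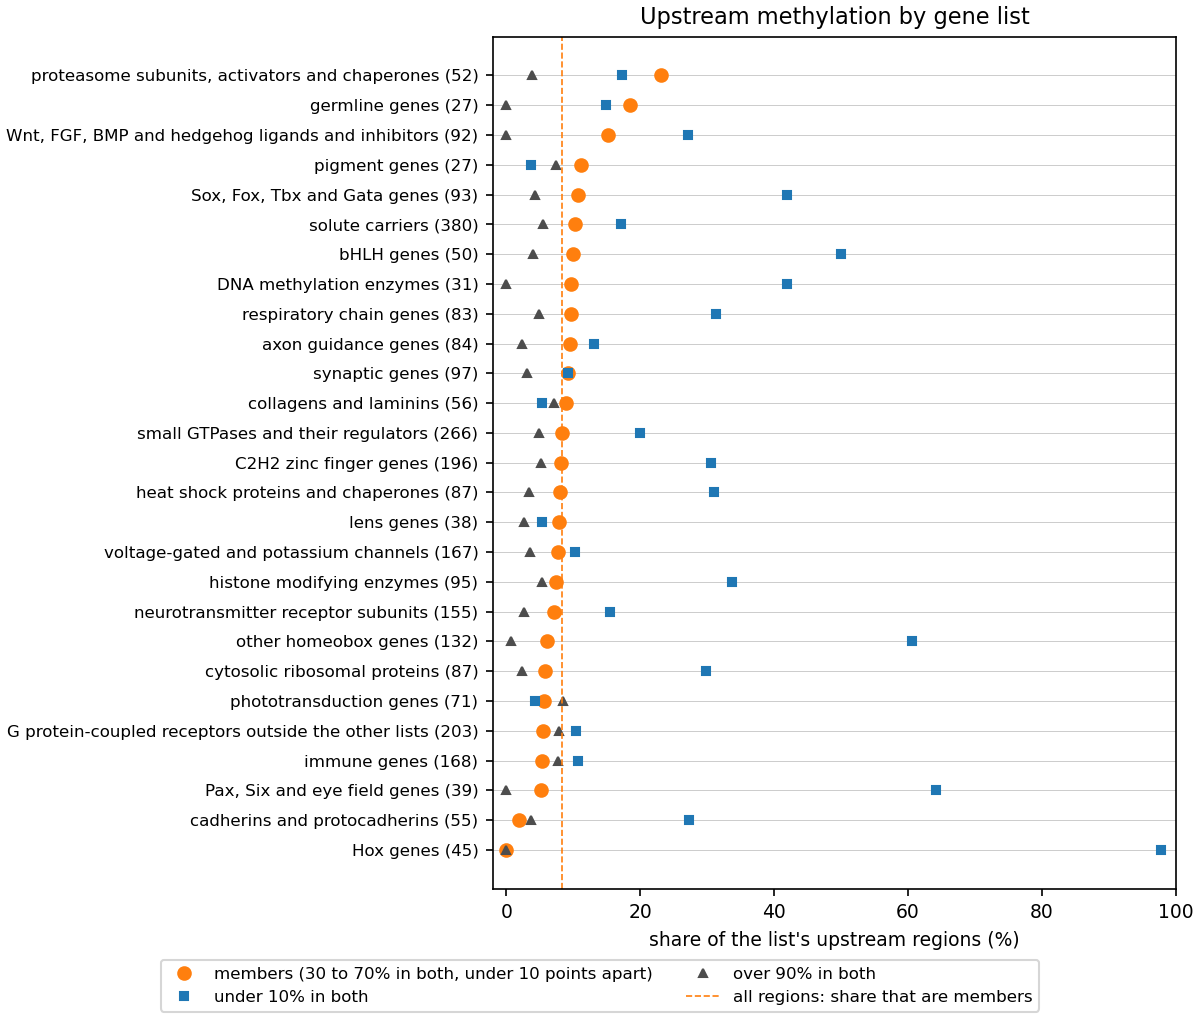
Share of each gene list's upstream regions (%, x axis) that were members (orange circles), under 10% methylated in both libraries (blue squares) or over 90% in both (grey triangles), with the number of regions in brackets and the members' share over all regions (8.31%) as a dashed line. The share of members runs from 0 (Hox genes) to 23.1% (proteasome), while the share under 10% runs up to 97.8%.

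The plot of shares by list shows that the member share spanned a narrower range than the unmethylated share. Most lists lay near the dashed line on the orange scale. The proteasome, germline and secreted signal lists lay to its right, and the Hox (0%) and cadherin (1.82%) lists to its left.

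The gene body was not used by the rule, and 1932 members had 20 or more calls there in each library. Their median level was 76.4% in cave eyes (quartiles 63.0 and 84.7%) and 75.7% in surface eyes (61.7 and 83.6%). The body was higher than the upstream region in both libraries in 1567 of the 1932 members and lower in both in 253. Among all 23139 genes with enough upstream and body calls these counts were 13751 and 5246. The rule caps the upstream level at 70%, so the counts of members are partly set by it. The median was 72.4 and 71.2% for genes with an upstream level under 10%, 88.9 and 87.6% for those over 90%, and 83.4 and 82.1% over all genes. Regions at 30 to 70% in both libraries but 10 or more points apart gave 76.2 and 75.5%, close in value to the members. Bodies under 30% were found in 86 (cave library) and 85 (surface library) of the 1932 members. Over all genes the counts were 1138 and 1175 of 25016, so such bodies were about as common there. A member with such a body was sox21a, a neural transcription factor gene, with 3.06 and 2.86% in the body beside 31.0 and 31.8% upstream. Another was barhl1a, with 2.01 and 1.54% in the body beside 41.7 and 38.0% upstream.

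The body level of members followed gene length in an uneven way. In the cave library the median was 86.8% in 71 member genes of up to 1000 bases and 86.05% in 82 of 1000 to 2000 bases. It was 60.7% in 235 genes of 2000 to 5000 bases and 66.8% in 395 of 5000 to 10000 bases. From there it was higher in each longer group, up to 81.75% in 247 genes over 50000 bases. The surface library gave the same order of low and high groups, from 85.45% in the shortest genes to 60.1% at 2000 to 5000 bases and 80.75% in the longest. Genes with an upstream level under 10% gave medians of 2.73 and 29.0% in the 2 shortest groups in the cave library, and 66.7% at 5000 to 10000 bases, close in value to the members there. These medians describe the genes of each span and carry no test.

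Between the libraries, 43 member bodies were more methylated in the cave library (2.23%) and 44 less (2.28%). A body was called where Fisher's exact test (two-sided) gave a Benjamini-Hochberg p under 0.05 over 25016 gene bodies and the levels were at least 10 points apart. The cave calls were not divided for this test. Calls on 1 read are not independent, so its p-values can be too small. Over all gene bodies 3.15% were called more methylated and 1.99% less. The members' share was thus lower than the background for more methylated bodies and near it for less methylated ones. The difference in balance was not tested. With 1 library per morph these calls compare 2 libraries, not the morphs. The median difference between the cave and the surface library was 0.914 points in members and 0.950 over all genes.

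Single member genes differed widely in the body while their upstream levels were alike, as the rule requires. The gene ndufa4l2a, related to a respiratory chain subunit (ENSAMXG00000014780, KB871939.1, 2085167 to 2089782), had 58.4% of 1992 body calls methylated in cave eyes and 22.7% of 1900 in surface eyes, beside 56.6 and 55.8% upstream. KIAA1024L had 89.4% in the body in cave eyes and 62.4% in surface eyes, and htatsf1, a transcription elongation gene, 75.5 and 49.5%. The level in serpina10a was 67.8 and 46.8%, and that gene overlaps ppp4r4. These 4 were the named members with the largest differences in that direction.

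The largest named differences in the other direction were in cep68 (59.5% in cave eyes and 86.6% in surface eyes), gtf2h5, a subunit gene of a DNA repair and transcription factor (29.2 and 55.3%), LACTB2 (39.1 and 63.9%) and arl5c (66.6 and 87.15%). None of these 8 genes passed the expression test, which called 2.77% of all genes tested higher and 0.407% lower. The RNA of ndufa4l2a was 10.5 and 1.76 CPM in the libraries labelled cave and 4.64 and 3.98 CPM in those labelled surface, so its groups overlapped. The RNA of htatsf1 was 119 and 112 CPM against 107 and 99.8 CPM. The member called in both measures was casp3a, the gene of an executioner protease of cell death, with 82.7% in the body in cave eyes and 70.8% in surface eyes. That gene was picked out after its values were seen. A like count of genes called in both measures was not made over all genes, so the overlap is not a result about the members.

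**Figure D3:**
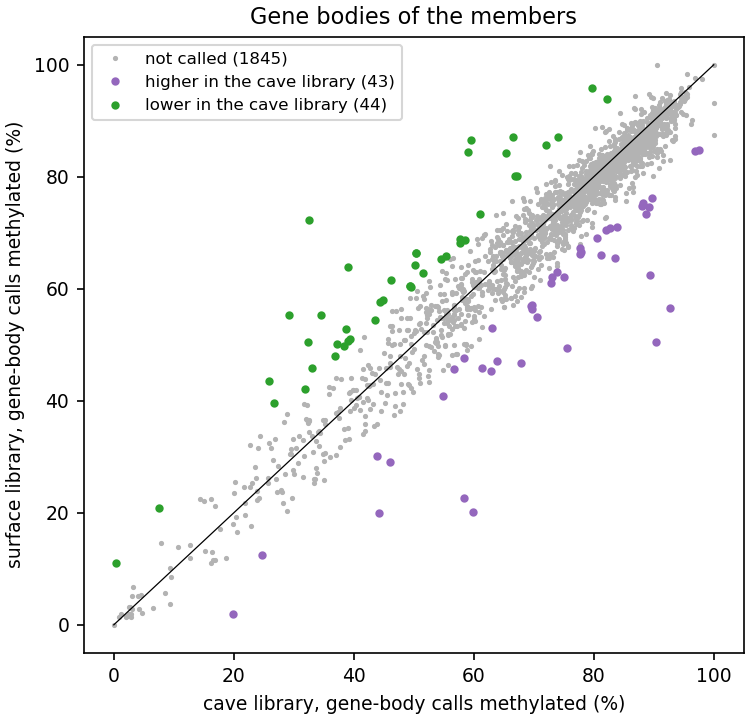
Methylated share of gene-body calls (%) in the cave library (x axis) and the surface library (y axis) for 1932 members. Grey points were not called, 43 purple points were higher and 44 green points lower in the cave library, and the line marks equal levels; most members lie near the line at 60 to 90%.

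In the plot of member gene bodies the called genes lie on both sides of the line in similar number, and they spread over the whole range of levels rather than at one end.

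Most member genes were expressed in these eyes. A gene was taken as detected at 1 CPM or more in all 4 RNA libraries, which held for 1529 members, or 78.7% (interval 76.8 to 80.5%). Such an interval treats genes as independent draws, which members are not, so the shares are descriptions and the intervals test no difference. The share was 82.0% for genes with an upstream level under 10%, 55.8% for those over 90% and 63.9% over all genes. The median of the mean level was 13.4 CPM in members and 13.0 CPM in the regions 10 or more points apart. It was 17.7 CPM in the class under 10%, 3.12 CPM in the class over 90% and 6.58 CPM over all genes. These CPM are not corrected for length, and the classes differ in gene span as given above. No count was found in any library for 32 members (1.65%), against 2.72% of all genes. Under 1 CPM in all 4 libraries were 216 members (11.1%), against 21.95% of all genes.

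Within the members the detected share was lower at higher upstream levels. It was 81.7% at a mean upstream level of 30 to 40%, 81.2% at 40 to 50%, 78.1% at 50 to 60% and 74.9% at 60 to 70%. The intervals of neighbouring steps overlap, but they treat genes as independent draws, so the overlap decides nothing. The median mean level went from 18.1 CPM in the lowest step to 10.8 CPM in the highest. Over all regions with enough calls the share was between 79.3 and 82.0% in each step up to 50% upstream methylation, 70.95% at 60 to 70% and 47.3% at 80 to 90%. Members thus lie on both sides of the level at which the share over all regions begins to be lower, and no test was made of this.

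**Figure D4:**
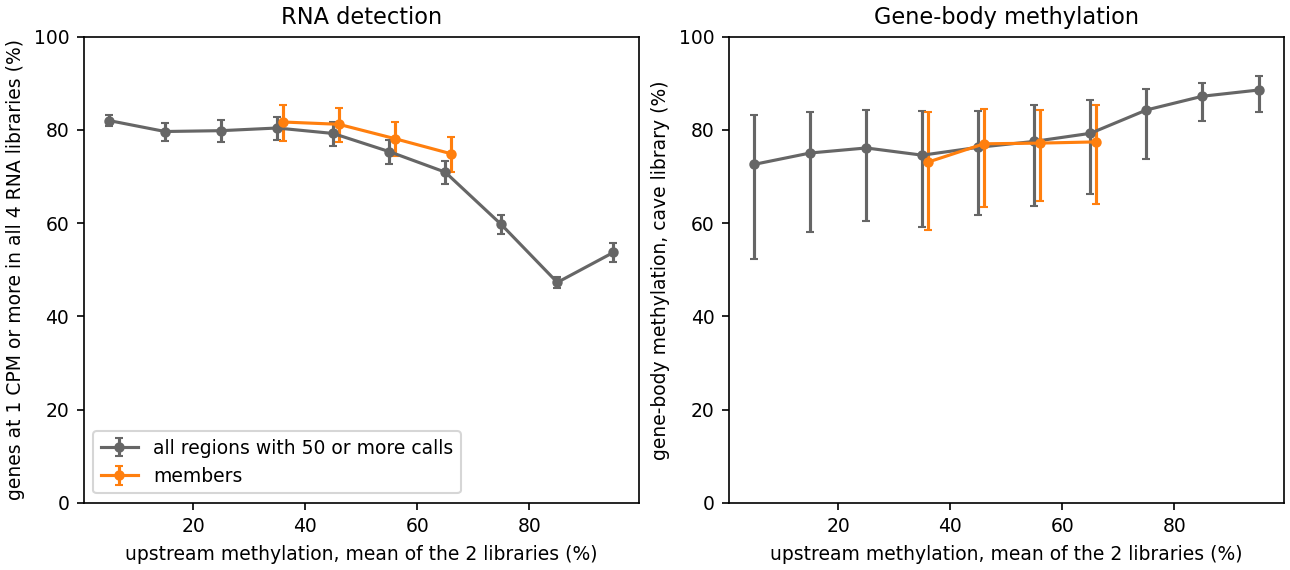
Left, share of genes with 1 CPM or more in all 4 RNA libraries (%, bars are 95% exact intervals that treat genes as independent draws and test no difference). Right, median gene-body methylation in the cave library (%, bars run from quartile to quartile). Both are against the mean upstream methylation in steps of 10%. Grey is all regions with 50 or more calls and orange the members (shifted by 1 point for view), whose detected share runs from 81.7% to 74.9%.

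The plot by upstream level sets the members beside all regions of like level. The body median of members in the cave library was 73.1% at 30 to 40% upstream and 77.4% at 60 to 70%, with quartiles that overlap widely.

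Few member genes differed in RNA between the groups. Of 1862 members that could be tested, 46 (2.47%) had more RNA and 7 (0.376%) had less in the libraries labelled cave (edgeR's quasi-likelihood test with Benjamini-Hochberg adjustment over 22850 genes at a threshold of 0.05). Over all genes tested 2.77% were higher and 0.407% lower, so the members' shares were near the background in both directions. The other 80 members were too low in counts to test. The median log2 fold change was 0.05 in members and 0.02 over all genes. Of the 46, 33 were at least 4-fold higher, and no like count was made among all 633 genes called higher.

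The counts rest on the libraries used. Without the library labelled cave, replicate 1, the test called 255 members higher (13.6%) and 295 lower (15.8%), so that more were lower than higher, and over all genes 12.9% and 18.1%. Leaving out cave replicate 2 instead gave 179 (9.55%) and 155 (8.27%), and over all genes 11.2% and 8.37%. Without surface replicate 1 edgeR called 0 members and 0 of all genes in each direction, with 84 higher and 50 lower at an unadjusted p under 0.05. Without surface replicate 2 it also called 0 members and 0 of all genes, with 85 and 26 at that level. In such fits 1 group holds 1 library that is assumed to vary like the other pair. DESeq2 on all 4 libraries called 117 members higher (6.19%) and 46 lower (2.43%), and over all genes 6.61% and 3.14%.

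The named members that were higher included genes of photoreceptors and of the pigment epithelium. The cone transducin gene gnat2 (ENSAMXG00000014015, KB872626.1, 6599 to 16407) had 196 and 208 CPM in the libraries labelled cave and 1.42 and 2.29 CPM in those labelled surface, which is log2 6.86 with a standard error of 0.31 (adjusted p = 0.0020, edgeR and Benjamini-Hochberg). RGS9 (ENSAMXG00000010630, KB871771.1, 290085 to 315493), which the file marks as 1 of several copies, had 53.3 and 71.05 CPM against 0.715 and 1.27 CPM (log2 6.07). The gene aipl1, whose product is a chaperone of the photoreceptor phosphodiesterase, had 88.5 and 95.1 CPM against 4.68 and 2.78 CPM (log2 4.68). The retinol esterifying enzyme gene lrata had 8.65 and 7.93 CPM against 0.0817 and 0.181 CPM (log2 6.07). In each of these genes both libraries labelled cave were far above both labelled surface. Whether fewer cells of a type or less RNA per cell underlies such a difference cannot be told apart in bulk tissue. The photoreceptor markers, of which gnat2 is one, moved with this result, as did the retinal pigment epithelium markers. For the latter, of which lrata is one, all 6 were found, 4 were higher, and their sums were 2569 and 3580 CPM against 1117 and 811 CPM. Lens markers (6 found, 3 higher) summed to 382 and 399 CPM against 81.7 and 58.1 CPM, and Muller glia markers (3 of 4 found, 1 higher) to 589 and 584 CPM against 177 and 223 CPM. The glial sum rests mostly on rlbp1a (444 and 548 against 71.3 and 55.5 CPM). The glial marker slc1a3b lay the other way (43.2 and 10.9 against 69.9 and 127.5 CPM), and apoeb was mixed (102.2 and 25.5 against 35.6 and 39.8 CPM). Sums of the forebrain and blood markers lay the other way, with 0 called. Forebrain markers (4 of 5 found) summed to 72.1 and 86.6 CPM against 102 and 153.6 CPM, though fezf2 was higher in value (log2 0.86). Blood markers (3 of 6 found) summed to 57.6 and 32.8 CPM against 98.5 and 79.2 CPM. The part of these marker lists in the result was not tested.

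The 8 named genes with the largest rises also included sv2ba, faimb, neto1 and gpnmb. The synaptic vesicle protein gene sv2ba had 119 and 163.5 CPM against 1.41 and 1.78 CPM (log2 6.56). For faimb the values were 27.3 and 21.9 against 0.34 and 0.285 CPM (log2 6.37). The receptor auxiliary subunit gene neto1 had 7.75 and 16.2 against 0.735 and 0.596 CPM (log2 4.25). The pigment cell gene gpnmb had 32.5 and 62.5 against 2.52 and 3.5 CPM (log2 4.08). The gene gpnmb overlaps ENSAMXG00000007453, so reads may be shared. Adjusted p-values of these 8 genes lay between 0.0020 and 0.025 (edgeR with Benjamini-Hochberg adjustment). Their upstream levels were alike between the bisulfite libraries by the rule, from 33.3 and 32.5% in RGS9 to 68.3 and 65.2% in lrata. Each of these RNA differences thus stands beside an upstream difference of less than 10 points, which the rule fixed in advance. Another entry of the cone transducin gene, GNAT2, was no member, at 41.8% (cave) and 68.6% (surface) upstream. Its RNA was also higher, at 37.6 and 31.35 CPM against 0.674 and 0.880 CPM (log2 5.56).

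Other members past the threshold were grouped by known role after their values were seen. Photoreceptor genes among them were pde6a (25.6 and 31.2 CPM against 1.93 and 2.78 CPM, log2 3.69), fscn2b of the outer segment (log2 3.41), impg2b of the matrix between photoreceptors (3.82), and reep6 (2.45). The retinal pigment epithelium receptor gene rgra was higher by log2 2.25. Genes of neurons and synapses were rab3aa (2.52), sypb (1.80), cx35b, a gene of electrical synapses (2.99), chrnb3b (3.22) and nptx2b (2.11). Of these, chrnb3b overlaps itga6l, so reads may be shared. Most members in the synaptic and neurotransmitter receptor lists were not called, and rab3aa, sypb, cx35b and nptx2b are in neither list. Of 9 members tested in the synaptic list 1 was higher (sv2ba), and of 11 in the receptor list 1 (chrnb3b). In any upstream class these lists gave 7 of 102 and 9 of 155 higher, against 2.77% of all genes tested. Of 5 ganglion and amacrine cell markers 0 were called, and elavl3 lay the other way (log2 -1.12). Genes of energy metabolism were pygl (2.27), pdk4 (1.55) and the lactate transporter gene slc16a3 (2.28). The cryptochrome gene cry1bb was higher by 2.60, the ephrin gene efna1a by 2.65 and casp3a by 1.58. For casp3a the values were 177 and 196 CPM in the libraries labelled cave and 68.3 and 63.1 CPM in those labelled surface. Of 73 phototransduction genes tested in any upstream class 46 were higher, and of the 4 members 3 were higher and opn5 was not called, at 5.39 and 6.04 CPM against 0.79 and 1.44 CPM (adjusted p = 0.066, edgeR and Benjamini-Hochberg).

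Members that were lower included 3 named genes with a mean log2 CPM of 1 or more. Another gene with a symbol, drc1, was lower but under that limit. It had 0.0151 and 0 CPM in the libraries labelled cave and 2.91 and 2.91 CPM in those labelled surface (log2 -8.31). The size of that change rests on 2 and 0 counts in the libraries labelled cave. The file marks drc1 as 1 of several copies, and it overlaps ENSAMXG00000019142, so reads may be shared. The meiotic gene sycp1 (ENSAMXG00000016490, KB882171.1, 3166433 to 3180167) had 5.83 and 5.39 CPM in the libraries labelled cave and 23.8 and 24.6 CPM in those labelled surface, which is log2 -2.03 with a standard error of 0.27 (adjusted p = 0.025, edgeR and Benjamini-Hochberg). The receptor gene notch3 had 69.4 and 56.35 CPM against 134 and 179.6 CPM (log2 -1.23), and phf20a 31.2 and 34.6 CPM against 72.0 and 87.4 CPM (log2 -1.19). The adjusted p of the latter genes was 0.047 and 0.046 (edgeR and Benjamini-Hochberg). Their upstream levels were 55.85 and 49.5% in notch3 and 55.2 and 56.2% in phf20a.

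**Figure D5:**
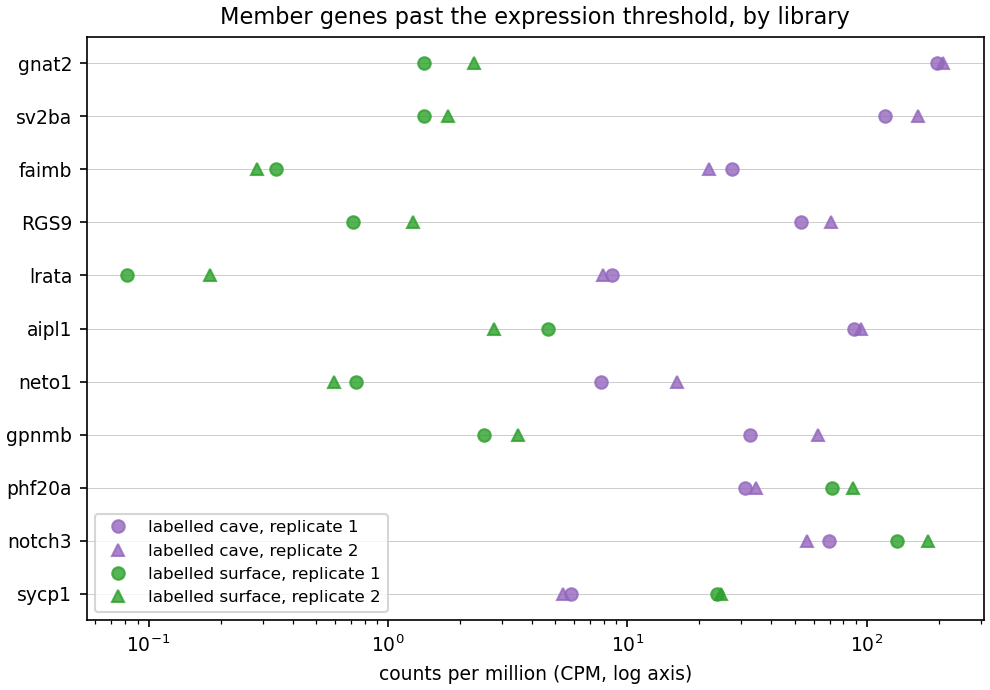
RNA level (CPM, log x axis) of 11 member genes past the expression threshold, 1 point per library. They are the genes with a symbol that changed most at a mean log2 CPM of 1 or more, up to 8 per direction. Purple marks libraries labelled cave and green those labelled surface, with circles for replicate 1 and triangles for replicate 2. The 8 upper genes are higher and the 3 lower genes lower in both libraries labelled cave.

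The plot of RNA by library shows that replicates lay close to each other compared with the distance between groups in these genes, which were selected by that contrast. Of the 46 members that were higher, 19 (41.3%) had a mean upstream level over 60%, as did 546 of all members (28.1%). Their median upstream level was 58.45%, against 52.0% in all members. The share that was higher was 1.96% of tested members at 30 to 40% upstream and 3.68% at 60 to 70%. Over all regions it was 1.54% and 4.16% in the same steps, and 4.71% at 70 to 80%. These shares are descriptions, and the difference between steps was not tested.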

How the data were processed

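The RNA table holds raw counts per gene, deposited by the authors as whole numbers. Per the file headers, the methylation table gives for each gene the counts of methylated and of unmethylated calls upstream and in the body. The submitters' processing notes name Trimmomatic, Bismark, STAR, Subread, featureCounts and DESeq2, without versions or roles. How wide an upstream region is, which cytosine context was called, whether duplicates were removed and which genome build was used is not given in the sources used here. Positions are as the files give them. Promoter sequence was not used here.

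Percentages were computed from the calls. The RNA test was edgeR 4.0.16 under R 4.3.3 (TMM scaling, default low-count filter, quasi-likelihood test, 2 against 2 libraries, Benjamini-Hochberg), checked on simulated counts. The standard error is the absolute log2 change over the root of its F statistic. CPM divides by the library total. Gene bodies with 20 or more calls in each library were compared by Fisher's exact test. Also used were DESeq2 1.42.0, limma 3.58.1 (by edgeR), pandas 2.3.3, scipy 1.17.1 and numpy 2.4.6 under Python 3.11.15, and matplotlib 3.10.9. Alternatives changed scaling, filters, the limits of the rule, the libraries and the replicate term.

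The members, gene lists and tests were chosen with earlier results of these data known. Genes named were, among members with a symbol that is no clone or locus name, the 6 with most upstream calls, up to 8 per direction past the expression threshold whose mean log2 CPM reached 1, 4 per direction for gene bodies, up to 4 per list, and regions at each limit. Others named were chosen after their values were seen.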

Additional observations from a re-analysis of the deposited data

How the results depend on the processing

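The number of members was 1853 to 1951 with another minimum of calls, 1931 with the cave calls halved (chosen after seeing the data) and 2873 with no limit on the difference, but 735 at 40 to 60%, 3915 at 20 to 80% and 1144 at under 5 points apart. Members higher and lower in RNA numbered 117 and 46 with DESeq2, and leaving out 1 library gave 0 to 255 and 0 to 295. The numbers of the RNA libraries are not stated to mark shared batches, and the deviations of same-numbered libraries correlated at -0.072 over 22850 genes. With the replicate block 23 members were higher and 3 lower. DESeq2 size factors in edgeR gave 43 and 6, and no filter on low counts 53 and 7. Gene bodies called at 5 points numbered 255 higher (13.2%) and 146 lower (7.56%), against 12.1% and 6.62% over all gene bodies. At 10 points the directions were nearly even in members, but not over all gene bodies (3.15% and 1.99%). The median body level was 76.3 and 75.6% (cave, surface) at 200 or more calls, and 76.9 and 76.6% with all calls summed. RNA was detected in 88.9% of members at 1 CPM in any library and in 47.0% at 10 CPM in all 4. The log2 fold change of some named genes that were not called changed sign, while none of the named genes called in the edgeR fit to all 4 libraries did so under an alternative. The lowest and highest values with 1 library left out were as follows in those genes, all on the log2 scale. They included myh10 (-0.48 to 0.20), ndufa4l2a (-1.19 to 1.24), KIAA1024L (-1.24 to 0.75), serpina10a (-0.21 to 0.32), six7 (-0.48 to 0.96), meis3 (-0.52 to 0.15), cdx1b (-6.12 to 6.25), sox12 (-0.42 to 0.84) and bmp3 (-2.94 to 0.29). Others were dkk2 (-1.65 to 0.46), ephb2b (-0.84 to 0.16), pcdh7a (-0.97 to 0.26), KCNA1 (-1.05 to 0.50), GRIK2 (-1.11 to 0.48), gja3 (-1.13 to 0.20), cbx8b (-0.37 to 0.44), kat2a (-0.033 to 0.21) and setd8a (-0.072 to 0.19). Further such genes were tdrd9 (-0.82 to 0.002), rps27.1 (-0.34 to 0.12), rpl11 (-0.14 to 0.23), rpl19 (-0.33 to 0.015), rps13 (-0.098 to 0.17), ndufb11 (-0.10 to 0.21), psmc5 (-0.27 to 0.002), psmd4a (-0.083 to 0.26) and dnajc11a (-0.084 to 0.13). The rest were tnfsf10 (-1.41 to 0.79), il6st (-0.096 to 0.075), SLC46A2 (-1.10 to 0.18), lama5 (-0.998 to 0.48), col7a1 (-3.60 to 0.13), rab13 (-0.67 to 0.42) and GPR26 (-0.61 to 0.067). Without cave replicate 1 the lower values of ndufa4l2a and tnfsf10 passed the threshold (adjusted p = 0.031 and 0.0029, edgeR and Benjamini-Hochberg). The value for il6st was -0.003 with DESeq2 size factors and -0.004 with DESeq2, and for rab13 -0.006 and -0.008, while the replicate block gave -0.26 for tnfsf10 and -0.074 for rab13. In RNA the balance of calls turned without cave replicate 1, with more members lower than higher. The cause of these changes was not tested. With 1 bisulfite library per morph no spread between animals is known, and depth limits the 89 members under 200 calls most.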
